A study of Danio rerio with 9 samples.

Results

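The transcriptome of larval zebrafish was examined for a graded response to perfluorononanoic acid (PFNA) across all 9 RNA-seq libraries of the study, ordered by dose: the DMSO control, then 0.1 µg/L, then 10 µg/L. The question was whether transcripts moved in one direction as dose increased, or whether larvae at 0.1 µg/L stood above or below both other groups. The members were all 9 libraries of the 9 in the series, and 19076 of the 19130 genes measured in all of them were tested. The other 54 genes had a mean under 10 normalised reads.

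Each group had 3 libraries. The control larvae received 0.1% DMSO, the solvent, with no PFNA, and the exposed larvae received PFNA in the same solvent, at 0.1 µg/L in one group and 10 µg/L in the other. Embryos came from zebrafish of the AB × Tübingen background, with no transgene or mutation named, and were exposed for 7 days. Each library held the RNA of 14 to 15 whole larvae pooled from one beaker, so that the 3 libraries of a group are separate beakers but individual larvae cannot be compared. In whole larvae, fewer cells of a type and less RNA per cell cannot be told apart. The tables held all 6 markers searched for skeletal muscle, lens, photoreceptors, exocrine pancreas, liver and epidermis, 8 of 8 for neurons and 3 of 6 for erythrocytes, and 0 of the markers found was at 0 in all libraries.

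PFNA is a long-chain perfluoroalkyl acid that persists in water and in fish tissue. In rodents, such acids bind fatty acid binding proteins and activate the nuclear receptor PPAR alpha, which switches on genes of fatty acid oxidation in the liver. A graded transcript response is one in which the middle dose lies between the control and the upper dose. A non-monotonic response is one in which the middle dose lies outside that range, and such responses are a known concern in toxicology because effects at an upper dose do not then predict those at a lower one.

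Libraries held between 14491289 and 23963715 reads on genes, and the 10 most abundant genes took 14.0% to 17.9% of the reads. Before any gene was tested, a pair of libraries stood apart from their groups along the main axis of variance. On the first principal component, which held 51.4% of the variance, the libraries scored -49.2, -31.1 and 41.9 in DMSO, -68.7, 19.4 and -48.0 at 0.1 µg/L, and 44.7, 51.4 and 39.5 at 10 µg/L. DMSO replicate 3 therefore lay with the 10 µg/L libraries, and 0.1 µg/L replicate 2 lay toward them. The main results are also given without these libraries, a choice made after the data were seen. On the second principal component, with 11.8% of the variance, DMSO replicate 1 scored -50.0 and the other libraries scored -18.3 to 26.9. DMSO replicate 1 thus stood apart as well, and list counts without it are not given here. DMSO replicates 1 and 2 each carried a first sequencing index of their own, while the other 7 libraries shared one index, so the index and the control group cannot be told apart for those 2 libraries. A fit with the first index as a covariate therefore has DMSO replicate 3, which lay with the 10 µg/L libraries, as its only control library for the dose comparison. Values from that fit, here and below, cannot show what the trends would be without the index.

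Each gene's trend was the slope of log2(normalised reads + 1) per step of dose. With 3 libraries at each step, this slope equals the difference between the 10 µg/L and DMSO means divided by 2. The position of the 0.1 µg/L larvae was therefore measured separately, as the departure of their mean from the midpoint of the outer means. Tests were two-sided with the moderated statistics of limma.

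No single gene had a graded trend that passed adjustment over all genes. Of 19076 genes, 1924 (10.1%) had a slope with an unadjusted p under 0.05, of which 1063 (5.57%) were higher with dose and 861 (4.51%) were lower. With limma, 0 genes had an adjusted p under 0.05, and the lowest adjusted p was 0.482. On recovered reads, edgeR found 1950 genes at an unadjusted p under 0.05 and DESeq2 found 2142, and both had 0 genes after adjustment. The lowest adjusted p was 0.462 with edgeR and 0.0587 with DESeq2. Without DMSO replicate 3, 4672 genes (24.6%) had an unadjusted p under 0.05 and 365 (1.92%) an adjusted p under 0.05. The absence of adjusted calls thus depended on this library. It was singled out for lying with the 10 µg/L libraries, and leaving out such a control favours larger differences between DMSO and 10 µg/L. Counts without it, here and below, are therefore not independent support for a trend. Of those 365 genes, 278 were already among the 1924. Without both libraries that stood apart, 603 genes (3.18%) had an adjusted p under 0.05, of which 223 had means higher at each step, 200 lower at each step, 90 highest and 90 lowest at 0.1 µg/L. The number of unadjusted calls was 753 without 10 µg/L replicate 2, 1115 without 10 µg/L replicate 1, 1121 without 10 µg/L replicate 3 and 1179 without DMSO replicate 1. Fewer genes than in the main fit had an unadjusted p under 0.05 with the first index as a covariate, where DMSO replicate 3 alone set the control level.

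Most genes did not have ordered group means. Over all genes tested, 2839 had means that were higher at each step of dose and 2860 had means that were lower at each step, together 29.88%. Means were highest at 0.1 µg/L for 6626 genes and lowest at 0.1 µg/L for 6751. Of the 6 possible orders of 3 means, 2 are monotonic. Among the 1924 genes with a trend, 1297 (67.41%) were monotonic, a share raised by the choice of genes with large outer differences. Of the remaining trend genes, 274 had their highest mean and 353 their lowest mean at 0.1 µg/L. Of the non-monotonic genes with an upward slope, 348 were lowest and 10 highest at 0.1 µg/L, and of those with a downward slope, 264 were highest and 5 lowest there.

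**Figure D1:**
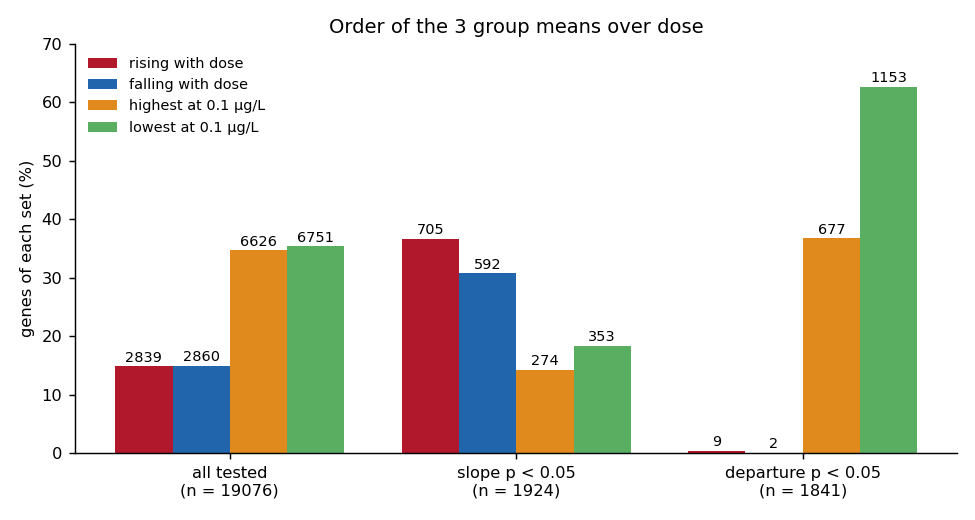
Share of genes (%) with each order of the 3 group means, for all genes tested, for genes with a slope at an unadjusted p under 0.05 and for genes with a departure at an unadjusted p under 0.05. Numbers above the bars are genes. The 2 monotonic orders hold 5699 of 19076 genes overall and 1297 of 1924 genes with a trend, and the lowest mean at 0.1 µg/L is the most frequent order (1153 genes) among genes with a departure.

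Among monotonic genes with a trend, the 0.1 µg/L mean lay nearer to DMSO than to 10 µg/L. On a scale where DMSO is 0% and 10 µg/L is 100%, the median position of the 0.1 µg/L mean was 24.61%. The mean lay under 25% of the way for 666 of these 1297 genes, between 25% and 75% for 578 and over 75% for 53. Without DMSO replicate 3 the median position was 26.7%, and without both libraries that stood apart it was 20.7%. Fitting the concentration itself, in which 0.1 µg/L sits beside the control, gave 3998 genes at an unadjusted p under 0.05, against 1924 for dose rank. The 2 fits shared 1668 genes, and the concentration fit also had 0 genes after adjustment (lowest adjusted p 0.0642).

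The same asymmetry was seen in the libraries without a model. The 3 DMSO libraries lay above all 6 others for 123 genes (0.645%) and below them for 155 (0.813%). The 3 libraries at 0.1 µg/L lay above all others for 268 genes (1.4%) and below them for 234 (1.23%). The 3 libraries at 10 µg/L lay above all others for 1096 genes (5.75%) and below them for 843 (4.42%). In pairs of groups, 0.1 µg/L did not overlap DMSO for 637 genes above (3.34%) and 598 below (3.13%), and 10 µg/L did not overlap DMSO for 1883 genes above (9.87%) and 1511 below (7.92%). Between the PFNA groups, 10 µg/L did not overlap 0.1 µg/L for 2821 genes above (14.8%) and 2644 below (13.9%). The 10 µg/L libraries also lay close together on the first principal component, whereas both other groups were spread. Shares under random assignment of the libraries were not computed for these counts. The shares for 0.1 µg/L against the 6 others and against DMSO are therefore not read as an effect. DMSO replicate 3, which lay with the 10 µg/L libraries, was included in all of these counts.

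A strict dose order over libraries was rare. All 9 libraries were in order of dose for 30 genes (0.157%), 14 upward (0.0734%) and 16 downward (0.0839%). This number was 25 with TMM scaling and 48 with quantile scaling, and it was 253 (1.33%) without DMSO replicate 3 and 497 (2.62%) without both libraries that stood apart, where fewer libraries have to be in order. Each of these 30 genes has the smallest two-sided exact permutation p that the 1680 assignments of 9 libraries allow, 0.00119, which follows from the order itself. That p is also the share of assignments with a strict order in either direction, a value near the observed share of genes, 0.157%. A strict order alone therefore does not set the genes described below apart from chance.

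Genes in strict upward order included a potassium channel, a replication factor and genes expressed in neurons. The gene kcna4, which encodes a voltage-gated potassium channel subunit that repolarises neurons, had 22.7, 20.4 and 22.3 normalised reads in DMSO, 35.1, 25.98 and 37.6 at 0.1 µg/L, and 43.7, 68.8 and 58.9 at 10 µg/L. The slope of kcna4 was 0.66 ± 0.15 log2 units per dose step (SE, limma p = 0.000749, exact permutation p = 0.00119), and levels were 2.62-fold higher at 10 µg/L than in DMSO. The gene mcm5, a subunit of the helicase that opens DNA for replication, had 246, 248 and 183 normalised reads in DMSO, 293, 271 and 268 at 0.1 µg/L, and 342, 417 and 347 at 10 µg/L. Its slope was 0.36 ± 0.08 (limma p = 0.000748, exact permutation p = 0.00119). The neuronal nitric oxide synthase gene nos1 had 21.2, 13.9 and 26.3 normalised reads in DMSO, 33.8, 29.8 and 36.5 at 0.1 µg/L, and 45.6, 78.02 and 39.6 at 10 µg/L, with the highest value in 10 µg/L replicate 2. The genome organiser satb1b had 81.8, 70.01 and 82.1 normalised reads in DMSO, 92.4, 87.6 and 96.9 at 0.1 µg/L, and 129, 139.5 and 116 at 10 µg/L, and the 0.1 µg/L libraries formed a narrow step between the outer groups. The transcriptional cofactor dacha had 273 ± 19.9 normalised reads in DMSO, 314 ± 24.5 at 0.1 µg/L and 386 ± 15.9 at 10 µg/L (SD, n = 3). The receptor tyrosine phosphatase ptprt, which is expressed in the vertebrate nervous system, had 117 ± 15.9 normalised reads in DMSO, 142 ± 4.13 at 0.1 µg/L and 182 ± 27.5 at 10 µg/L.

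Genes in strict downward order included factors of mitochondria, muscle and tRNA. The gene higd2a, which in mammals takes part in assembly of respiratory complexes, had 512, 452 and 424 normalised reads in DMSO, 372, 354 and 416 at 0.1 µg/L, and 270.1, 325 and 333 at 10 µg/L. Its slope was -0.29 ± 0.07 (limma p = 0.00146, exact permutation p = 0.00119), and the 0.1 µg/L mean lay 48.1% of the way to the upper dose. The tRNA methyltransferase trmt10a had 57.6, 83.1 and 66.96 normalised reads in DMSO, 42.95, 41.4 and 55.9 at 0.1 µg/L, and 38.04, 36.7 and 29.5 at 10 µg/L, which is 0.502 times the DMSO level at 10 µg/L. The muscle methyltransferase gene smyd1a, whose family takes part in myosin assembly, had 10138, 8292 and 8330 normalised reads in DMSO, 8207, 8091 and 7595 at 0.1 µg/L, and 6834, 5435 and 6925 at 10 µg/L. The troponin I gene tnni4b.2 had 1794, 1515 and 1466 normalised reads in DMSO, 1416, 1455 and 1380 at 0.1 µg/L, and 1206, 1241 and 1298 at 10 µg/L, a smaller step with DMSO replicate 1 above the other control libraries. The slopes of smyd1a and tnni4b.2 were -0.24 ± 0.07 and -0.17 ± 0.06. Of 92 sarcomere genes these 2 were in strict order, both downward, beside 16 of 19076 genes overall (0.0839%). The median slope of that list was 0.01, with 47 of its genes above 0 and 45 below.

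**Figure D2:**
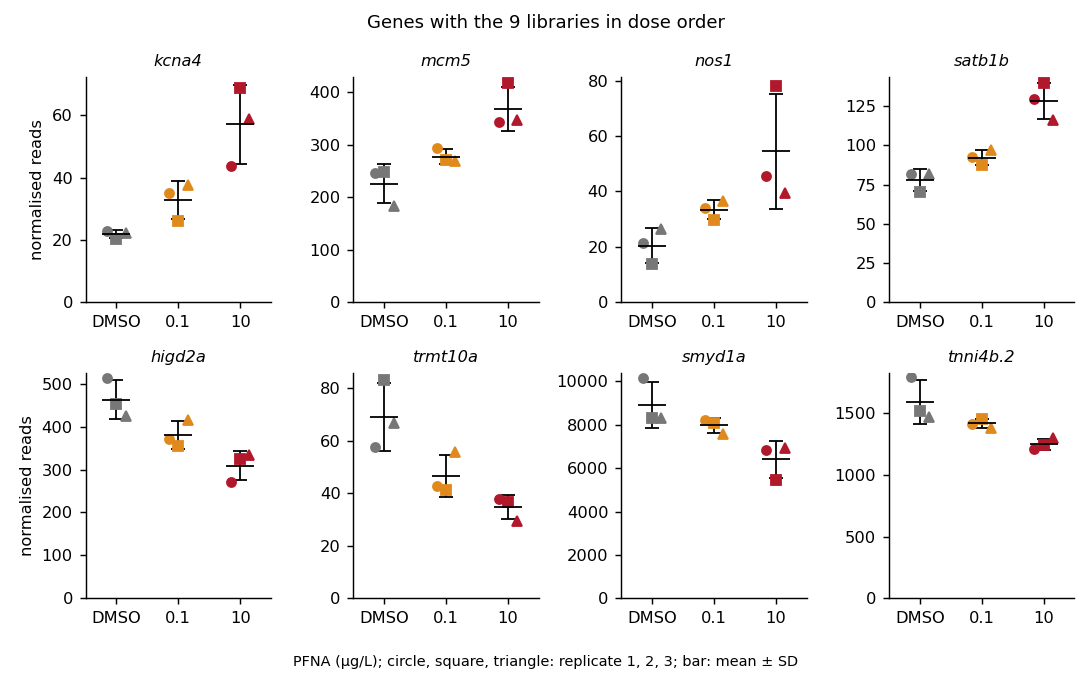
Normalised reads by dose for 8 of the 30 genes whose 9 libraries were in order of dose, 4 upward (top) and 4 downward (bottom). Symbols are replicates 1 to 3, the wide bar is the mean and the whiskers are the SD over 3 libraries. No library of a group overlaps the next group in any of these genes, and kcna4 runs between 20.4 in the lowest DMSO library and 68.8 in the highest 10 µg/L library.

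Among monotonic genes with the smallest trend p, those that were higher with dose included genes of neurons and of transcription. The gene dpysl2b (CRMP2), which binds tubulin and promotes axon growth, had 300.1, 311 and 352 normalised reads in DMSO, 276, 403 and 389.9 at 0.1 µg/L, and 665, 668 and 551 at 10 µg/L. Its slope was 0.48 ± 0.10 (limma p = 0.000421, exact permutation p = 0.00595), and its 0.1 µg/L mean lay only 13.9% of the way to the upper dose. The neuronal intermediate filament gene inab had 141, 139 and 136 normalised reads in DMSO, 189, 252 and 173 at 0.1 µg/L, and 235, 300.2 and 231 at 10 µg/L. In inab every exposed library lay above every DMSO library, and the 0.1 µg/L mean lay 62.4% of the way. The beta-catenin gene ctnnb2, which serves in cell adhesion and Wnt signalling, had 407 ± 44.8 normalised reads in DMSO, 473 ± 117 at 0.1 µg/L and 753 ± 84.1 at 10 µg/L (SD, n = 3). The protocadherin gene pcdh9 had 53.8 ± 9.51 normalised reads in DMSO, 66.3 ± 8.63 at 0.1 µg/L and 120 ± 28.9 at 10 µg/L, with a slope of 0.57 ± 0.13. The locus named unm_sa1261 had 41.6 ± 18.9 normalised reads in DMSO, 52.2 ± 13.8 at 0.1 µg/L and 128 ± 17.03 at 10 µg/L. The clock transcription factor clockb had 114, 124 and 199 normalised reads in DMSO, 148, 214 and 144 at 0.1 µg/L, and 294, 331 and 292 at 10 µg/L. Its slope was 0.55 ± 0.13 (limma p = 0.000814, exact permutation p = 0.00833), with DMSO replicate 3 and 0.1 µg/L replicate 2 the highest of their groups.

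The 8 genes that were lower with dose had varied roles. The nucleolar gene rsl1d1 had 5359, 5560 and 3844 normalised reads in DMSO, 4472, 3894 and 4870 at 0.1 µg/L, and 2666, 2556 and 2898 at 10 µg/L, which is 0.550 times the DMSO level at 10 µg/L (slope -0.42 ± 0.09, limma p = 0.000503, exact permutation p = 0.00714). The copper chaperone cox17, which supplies cytochrome c oxidase, had 846, 912 and 803 normalised reads in DMSO, 821, 623 and 758 at 0.1 µg/L, and 418, 576 and 569 at 10 µg/L. The nuclear receptor rorcb had 534, 515 and 486 normalised reads in DMSO, 458, 273 and 374 at 0.1 µg/L, and 281, 304 and 309 at 10 µg/L, so that 0.1 µg/L replicate 2 was lower than any 10 µg/L library. The arrestin-domain gene arrdc2 had 1330 ± 267 normalised reads in DMSO, 1021 ± 71.5 at 0.1 µg/L and 775 ± 165 at 10 µg/L (SD, n = 3). The collagen chaperone serpinh1b had 448 ± 98.1 normalised reads in DMSO, 387 ± 53.6 at 0.1 µg/L and 257 ± 29.9 at 10 µg/L, and the ubiquitin ligase toporsa had 250.1 ± 49.6 normalised reads in DMSO, 202 ± 49.8 at 0.1 µg/L and 136 ± 5.98 at 10 µg/L. The cathepsin family gene cts12 had 33.3, 21.9 and 23.9 normalised reads in DMSO, 23.4, 23.1 and 28.5 at 0.1 µg/L, and 1.90, 4.59 and 6.73 at 10 µg/L. In cts12 the DMSO and 0.1 µg/L libraries overlapped and all 3 libraries at 10 µg/L were far below them (slope -1.21 ± 0.30, departure 1.16 ± 0.41), which is a step at the upper dose and not a graded decrease. The slopes of the 8 upward and 8 downward genes had the same sign and an unadjusted p under 0.05 in every alternative that tested them. These genes were chosen for small slope p in the same libraries, which favours that outcome, and their adjusted p in limma was 0.482.

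Departures of the 0.1 µg/L larvae from the line were counted about as often as trends. Of 19076 genes, 1841 (9.65%) had an unadjusted p under 0.05, with 679 (3.56%) above the midpoint of the outer means and 1162 (6.09%) below it. With limma, 0 genes had an adjusted p under 0.05 (lowest 0.512). edgeR found 1650 and DESeq2 found 1794 genes at an unadjusted p under 0.05, and both had 0 after adjustment. The excess below the line was reduced by quantile scaling, with 872 genes above and 956 below. Of the 1841 genes, 677 were highest at 0.1 µg/L, 1153 were lowest there and 11 were monotonic. The small monotonic number follows largely from the choice of genes with large departures. Without 0.1 µg/L replicate 2, 4063 genes had an unadjusted and 62 (0.325%) an adjusted p under 0.05, and 59 of those 62 were lowest at 0.1 µg/L. Without both libraries that stood apart, 769 genes (4.05%) had an adjusted p under 0.05, with 529 lowest and 220 highest at 0.1 µg/L. Without 0.1 µg/L replicate 1 or replicate 3, 564 and 642 genes had an unadjusted p under 0.05, and 1205 without 10 µg/L replicate 2. Without DMSO replicate 1 the number was 3122, and with the first index as a covariate it was 4970.

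The 6 genes ranked first among those highest at 0.1 µg/L all had their lowest mean at 10 µg/L. The metalloproteinase inhibitor timp4.3 had 518, 524 and 633 normalised reads in DMSO, 646, 631 and 657 at 0.1 µg/L, and 369, 308 and 359 at 10 µg/L. Its departure was 0.56 ± 0.12 log2 units (SE), and 0.1 µg/L replicate 2 lay just under DMSO replicate 3. The mitochondrial ribosomal protein gene mrpl52 had 130.3, 129.8 and 117 normalised reads in DMSO, 191, 170.3 and 179 at 0.1 µg/L, and 88.4, 89.04 and 110.3 at 10 µg/L, with no overlap between any of the groups (departure 0.71 ± 0.15). The Dickkopf family gene dkk3a had 430.4, 363 and 343 normalised reads in DMSO, 564, 411 and 536 at 0.1 µg/L, and 272, 327 and 285 at 10 µg/L. The monocarboxylate transporter SLC16A7 had 531, 641 and 573 normalised reads in DMSO, 999.7, 671 and 862 at 0.1 µg/L, and 483, 355 and 569 at 10 µg/L. In dkk3a and SLC16A7, 0.1 µg/L replicate 2 was the lowest of its group. The Polycomb gene cbx7a had 1243 ± 133 normalised reads in DMSO, 1544 ± 229.7 at 0.1 µg/L and 891 ± 119 at 10 µg/L (SD, n = 3), and the ribosome assembly factor tma16 had 505 ± 37.8 normalised reads in DMSO, 613 ± 93.1 at 0.1 µg/L and 369.5 ± 19.3 at 10 µg/L. The departures of these 6 genes lay between 0.49 and 0.71 log2 units.

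The 6 genes lowest at 0.1 µg/L included regulators of epithelia, the cytoskeleton and calcium signalling. The epithelial transcription factor elf3 had 135, 125 and 139.5 normalised reads in DMSO, 42.95, 89.5 and 55.9 at 0.1 µg/L, and 122.7, 229.5 and 162 at 10 µg/L, so that all 3 libraries at 0.1 µg/L were below all 6 others (departure -1.29 ± 0.25). The gene gas2l1, which links actin to microtubules, had 24.3, 30.6 and 58.2 normalised reads in DMSO, 2.60, 21.2 and 6.84 at 0.1 µg/L, and 49.5, 78.9 and 54.7 at 10 µg/L. Its departure was -2.45 ± 0.51, from few reads in 0.1 µg/L replicates 1 and 3. The glycosyltransferase mgat3b had 46.98, 62.7 and 85.3 normalised reads in DMSO, 36.5, 37.5 and 29.6 at 0.1 µg/L, and 92.2, 134 and 83.3 at 10 µg/L. The calcineurin subunit ppp3ccb had 156, 163 and 226 normalised reads in DMSO, 115, 157 and 132 at 0.1 µg/L, and 290, 316 and 278 at 10 µg/L, and the transcription factor tfap4 had 36.4, 52.5 and 66.2 normalised reads in DMSO, 35.1, 31.8 and 18.2 at 0.1 µg/L, and 80.8, 102 and 108 at 10 µg/L. In both, the 0.1 µg/L libraries reached close to the lowest DMSO library while the 10 µg/L libraries lay above all others. The p53-induced gene tp53inp1 had 364, 344 and 407 normalised reads in DMSO, 283, 284 and 241 at 0.1 µg/L, and 396, 416 and 422 at 10 µg/L, with a gap between the 0.1 µg/L libraries and the other 6 (departure -0.54 ± 0.12). The gene with the smallest departure p of all, si:dkey-166k12.1, had 56.1, 44.5 and 57.4 normalised reads in DMSO, 16.9, 30.8 and 18.2 at 0.1 µg/L, and 53.3, 61.5 and 66.5 at 10 µg/L.

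**Figure D3:**
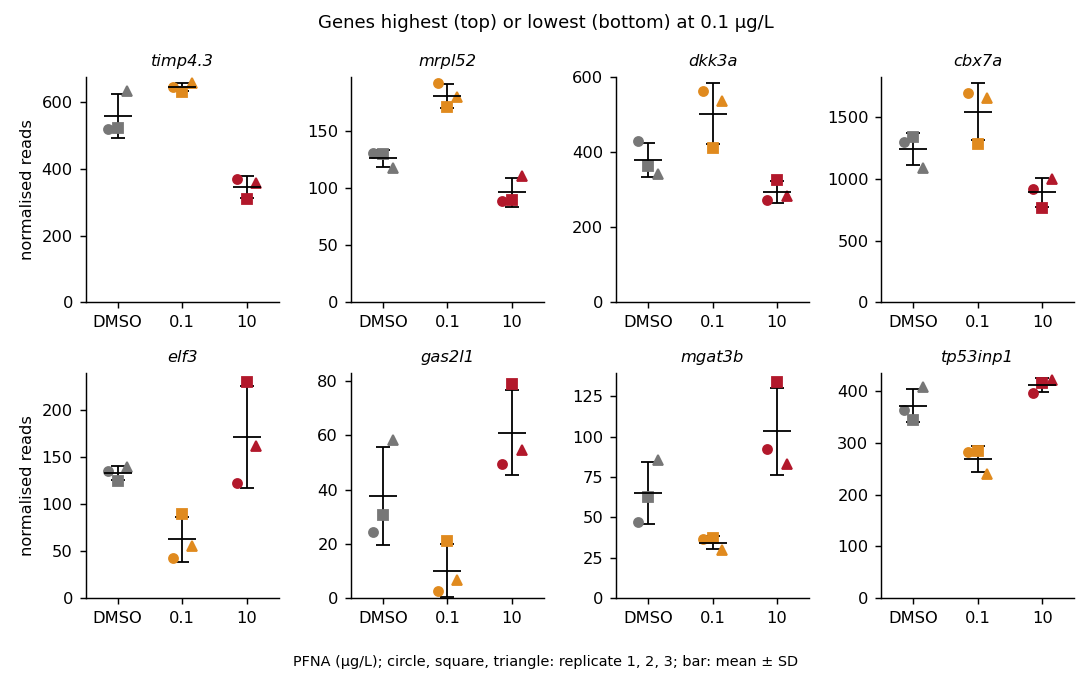
Normalised reads by dose for 4 genes highest (top) and 4 genes lowest (bottom) at 0.1 µg/L, chosen by departure p. Symbols are replicates 1 to 3, the wide bar is the mean and the whiskers are the SD over 3 libraries. In elf3 and tp53inp1 the 0.1 µg/L libraries lie below all others, whereas in gas2l1 replicate 2 at 0.1 µg/L (21.2) comes near the lowest DMSO library (24.3).

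The shapes were then described by gene function. For 34 lists of genes of one function, defined by gene symbol, the counts below are read against the share of all genes, 5.57% higher and 4.51% lower with dose. Genes of a list are measured in the same 9 libraries and are not independent of each other. The median slope was above 0 for 23 lists and below 0 for 11.

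**Figure D4:**
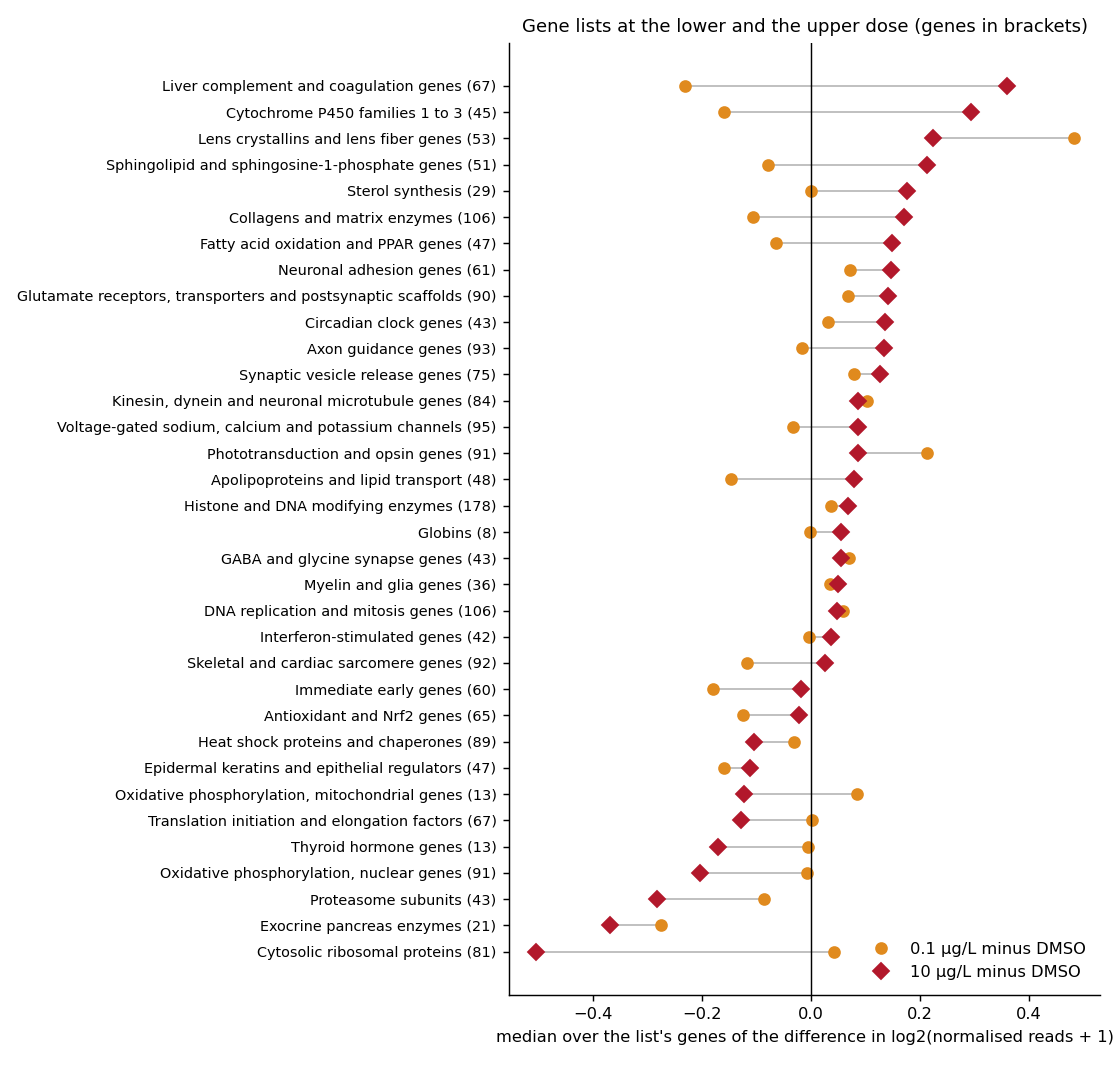
Median difference in log2(normalised reads + 1) over the genes of each of 34 lists, for 0.1 µg/L minus DMSO (circles) and 10 µg/L minus DMSO (diamonds), with the number of genes in brackets and lists sorted by the 10 µg/L value. Cytosolic ribosomal proteins have the lowest 10 µg/L median (-0.51) beside 0.04 at 0.1 µg/L, and the lens list is the one with the highest 0.1 µg/L median (0.48).

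Cytosolic ribosomal proteins, which form the ribosome subunits together with ribosomal RNA, were lower at 10 µg/L, with a median difference close to 0 at 0.1 µg/L. Of 81 genes, 46 (56.8%) were lower with dose at an unadjusted p under 0.05 and 0 were higher, and slopes were below 0 for 79. All 3 libraries at 10 µg/L lay below all 6 others for 56 of 81 genes, against 4.42% of all genes. The median difference from DMSO was 0.04 at 0.1 µg/L and -0.51 at 10 µg/L (log2), and 56 genes had their highest mean at 0.1 µg/L. That number was 5 without DMSO replicate 3, 64 without 0.1 µg/L replicate 2 and 42 without both. Over all genes, 6626 of 19076 were highest there in the main fit. In the same order as above, the other all-gene numbers were 4907 of 18996, 7598 of 19056 and 6525 of 18971. The gene rpl30 had 40513, 34197 and 31115 normalised reads in DMSO, 37718, 30164 and 31897 at 0.1 µg/L, and 23195, 22872 and 20879 at 10 µg/L (slope -0.33 ± 0.10). The gene rpl36 had 21044, 17899 and 18573 normalised reads in DMSO, 22107, 17152 and 19113 at 0.1 µg/L, and 13032, 13156 and 12679.8 at 10 µg/L, and rpl22l1 had a slope of -0.26 ± 0.08. Without DMSO replicate 3, 72 of 81 genes (88.9%) were lower, against 11.7% of all genes. With quantile scaling, 13 of 81 were lower and the median slope was -0.08, against 5.62% of all genes, so the size of this decrease depended on how libraries were scaled. With the first index as a covariate, 8 of 81 (9.88%) were lower, against 1.71% of all genes, and the median slope was -0.22, against -0.25 without it.

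Other genes of protein production and energy metabolism had medians in the same direction with smaller differences. Mean deviations (log2) of the proteasome list were 0.33, -0.045 and 0.018 in DMSO and 0.122, -0.301 and -0.272 at 10 µg/L. Those of the nuclear oxidative phosphorylation list were 0.328, -0.055 and -0.091 in DMSO and 0.004, -0.192 and -0.207 at 10 µg/L. In both lists these groups overlapped and DMSO replicate 1 was highest, as in the ribosomal list (0.48). Of 67 translation initiation and elongation factors, 13 were lower and 0 higher with dose. The initiation factor gene eif3k had 4003 ± 572 normalised reads in DMSO, 3781 ± 779.5 at 0.1 µg/L and 2561 ± 200.2 at 10 µg/L (SD, n = 3), and the elongation factor gene eef1da had 16646 ± 2021 normalised reads in DMSO, 15992 ± 996 at 0.1 µg/L and 11674 ± 343 at 10 µg/L. Of 43 proteasome subunits, which degrade ubiquitin-tagged proteins, 10 were lower and 0 higher. Means were lower at each step for 26 of them, beside 2860 of 19076 genes overall. The catalytic subunit gene psmb6 had 2460, 1825 and 1779 normalised reads in DMSO, 1713, 1738 and 1808 at 0.1 µg/L, and 1539, 1209 and 1225 at 10 µg/L, and psma4 had a slope of -0.30 ± 0.10. Of 91 nuclear genes of oxidative phosphorylation, 20 were lower and 0 higher, and all 3 libraries at 10 µg/L lay below the 6 others for 16 (4.42% of all genes). With the first index as a covariate, 2 of 91 were lower (2.2%), 2 of 67 translation factors (2.99%) and 3 of 43 proteasome subunits (6.98%), against 1.71% of all genes. The cytochrome c gene cycsb had 2975, 3963 and 2937 normalised reads in DMSO, 3119, 2477 and 3022 at 0.1 µg/L, and 2221, 2368 and 2377 at 10 µg/L, and the complex I subunit ndufs4 had 714 ± 140.1 normalised reads in DMSO, 709 ± 48.96 at 0.1 µg/L and 492 ± 16.7 at 10 µg/L. None of the 13 mitochondrially encoded subunits had a slope at an unadjusted p under 0.05, and 12 of them had their highest mean at 0.1 µg/L. Without DMSO replicate 3, 2 of 13 were highest there and 1 was lower with dose at an adjusted p under 0.05 in limma, and with quantile scaling 7 were highest there. Without both libraries that stood apart, 5 of 13 were highest there, near the share of all genes (6525 of 18971). Over all genes, 6626 of 19076 were highest there in the main fit, 4907 of 18996 without DMSO replicate 3 and 7010 of 19076 with quantile scaling. Without DMSO replicate 3, 160 of 18996 genes overall were lower at an adjusted p under 0.05 in limma.

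In 6 of 8 nervous system lists the share of genes that were higher with dose lay between 12.2% and 27.9%, against 5.57% of all genes. Of 61 neuronal adhesion genes, which join neurites and synapses, 17 (27.9%) were higher and 0 lower. Of 84 kinesin, dynein and neuronal microtubule genes, 17 were higher and 0 lower, and of 75 synaptic vesicle release genes, 15 were higher and 0 lower. Of 93 axon guidance genes, 16 were higher and 2 lower, of 43 GABA and glycine synapse genes 8 were higher and 0 lower, and of 90 glutamate genes 11 were higher and 1 lower. Of 95 voltage-gated channels, 6 were higher (6.32%) and 3 lower, and of 36 myelin and glia genes 2 were higher (5.56%) and 2 lower, both close to the share of all genes. The medians of the 7 lists other than myelin and glia were small, between 0.05 and 0.15 for 10 µg/L minus DMSO, so that a minority of genes carried the counts. All 3 libraries at 10 µg/L lay above the 6 others for 13 adhesion, 12 microtubule, 13 vesicle, 16 axon guidance and 16 glutamate genes, against 5.75% of all genes. The same held for 3 of 43 GABA and glycine genes, 9 of 95 voltage-gated channels and 3 of 36 myelin and glia genes.

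Many of the genes behind these counts lay nearer to the control level at 0.1 µg/L and stepped up at 10 µg/L. The contactin gene cntn1a, an axonal adhesion protein, had 39.4, 61.99 and 62.97 normalised reads in DMSO, 49.5, 103 and 53.6 at 0.1 µg/L, and 125, 119 and 126 at 10 µg/L, where 0.1 µg/L replicate 2 was above its group. The kinesin-2 motor gene kif3ca had 12.1, 16.8 and 38.3 normalised reads in DMSO, 22.1, 34.6 and 26.2 at 0.1 µg/L, and 60.9, 111 and 47.97 at 10 µg/L. The kinesin light chain gene klc1a had 83.4, 124 and 189 normalised reads in DMSO, 65.1, 270.3 and 124 at 0.1 µg/L, and 472, 543 and 407 at 10 µg/L, which is 3.59-fold higher at 10 µg/L than in DMSO (slope 0.95 ± 0.26). The dynamin gene dnm1b, which pinches off synaptic vesicles, had 117, 165 and 221 normalised reads in DMSO, 159, 259 and 166 at 0.1 µg/L, and 349, 458 and 337 at 10 µg/L. The vesicle-tethering GTPase gene rab3ab had 22.7, 24.1 and 57.4 normalised reads in DMSO, 50.8, 80.8 and 19.4 at 0.1 µg/L, and 139, 227 and 94.3 at 10 µg/L (slope 1.08 ± 0.28), and the synaptotagmin syt11b had 82.03 ± 19.7 normalised reads in DMSO, 102 ± 51.97 at 0.1 µg/L and 203 ± 27.9 at 10 µg/L (SD, n = 3). The semaphorin receptor plxna3 had 132, 152 and 214 normalised reads in DMSO, 145, 146 and 127 at 0.1 µg/L, and 296, 396 and 291 at 10 µg/L and was lowest at 0.1 µg/L. The glycine receptor subunit gene glra3 had a slope of 0.28 ± 0.10, and the adhesion gene dscama had a slope of 0.28 ± 0.09. Slopes of 0.64 ± 0.21 and 0.50 ± 0.14 were measured for the sodium channel gene scn8ab and the ephrin receptor gene epha4b. In most of these genes DMSO replicate 3 and 0.1 µg/L replicate 2 were the highest libraries of their groups.

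The one-sided pattern depended on DMSO replicate 3, most of all in the adhesion, microtubule and vesicle lists. Without it, 17 adhesion genes were higher and 11 lower, 17 microtubule genes were higher and 16 lower (median slope -0.01), and 18 vesicle genes were higher and 10 lower, where 12.9% of all genes were higher and 11.7% lower. In the axon guidance list 27 of 93 genes were higher (29.0%) and 10 lower (10.8%) without that library. The glutamate list then had 20 of 90 higher (22.2%) and 8 lower (8.89%), and the GABA and glycine list 11 of 43 higher (25.6%) and 4 lower (9.3%). These lists thus kept more higher than lower genes. With the first index as a covariate, 8 of 61 adhesion, 14 of 84 microtubule and 9 of 75 vesicle genes were higher and 0 lower, against 2.67% of all genes. In the same fit the axon guidance list had 2 of 93 genes higher (2.15%) and the glutamate list 4 of 90 (4.44%). The summed reads of 8 pan-neuronal marker genes overlapped between groups, with ranges of 34179.4 to 57306.1 in DMSO, 43656.8 to 61166.4 at 0.1 µg/L and 40955.7 to 42037.6 at 10 µg/L.

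**Figure D5:**
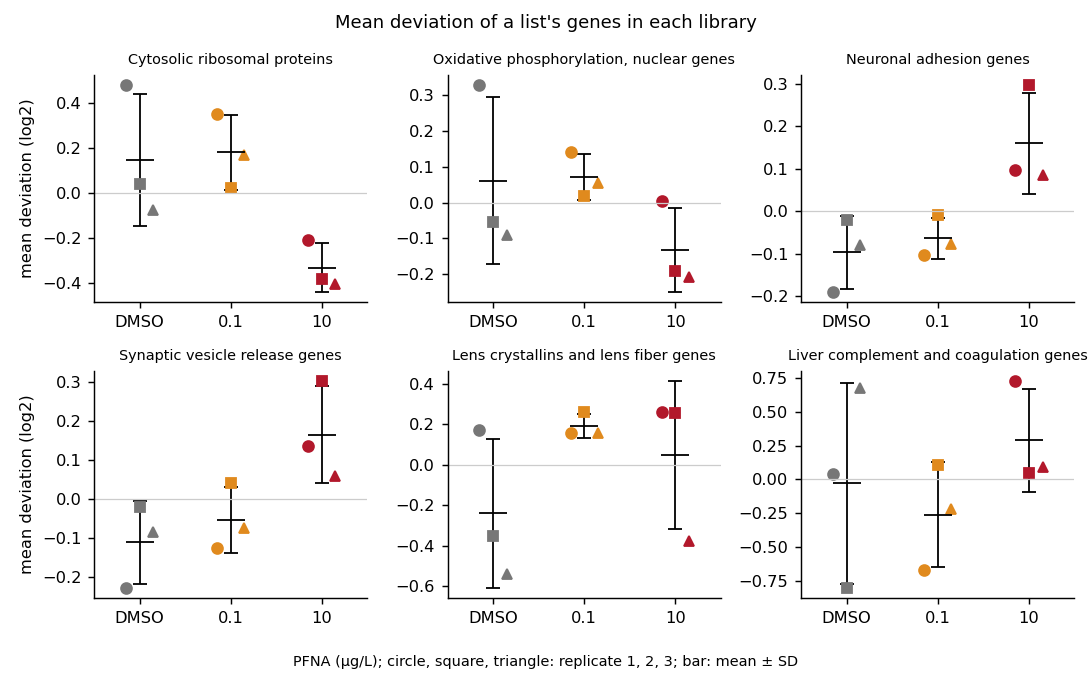
Mean deviation of the genes of 6 lists from their mean over 9 libraries (log2), for each library by dose. Symbols are replicates 1 to 3, the wide bar is the mean and the whiskers are the SD over 3 libraries. The 10 µg/L libraries of the ribosomal list (-0.21 to -0.40) and of the adhesion list (0.09 to 0.30) do not overlap the other 6, whereas the DMSO libraries of the liver list span -0.80 to 0.68.

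Eye lists were highest at 0.1 µg/L. Of 91 phototransduction and opsin genes, 59 had their highest mean at 0.1 µg/L, against 34.73% of all genes. A departure above the line at an unadjusted p under 0.05 was found for 16 of them, against 3.56% of all genes. Of 53 lens genes, 43 were highest at 0.1 µg/L, and the median difference from DMSO was 0.48 at 0.1 µg/L and 0.22 at 10 µg/L. In library means the lens list ranged from -0.54 to 0.17 in DMSO, 0.16 to 0.26 at 0.1 µg/L and -0.38 to 0.26 at 10 µg/L, so that the 0.1 µg/L libraries lay together within the range of the 10 µg/L libraries. The median slope of both lists was above 0 (0.04 and 0.11) but was -0.02 and -0.01 without DMSO replicate 3. The photoreceptor guanylate cyclase gucy2d, which restores cGMP after light, had 853, 823 and 838 normalised reads in DMSO, 1030, 1207 and 1173 at 0.1 µg/L, and 1313, 1305 and 1092 at 10 µg/L. The cone opsin kinase grk7a had 3151, 2506 and 2161 normalised reads in DMSO, 3628, 3970 and 3183 at 0.1 µg/L, and 4111, 4566 and 3158 at 10 µg/L, and the photoreceptor matrix gene impg1a had a slope of 0.27 ± 0.08. These 3 genes were already near the upper level at 0.1 µg/L, with means 78.4%, 79.4% and 89.97% of the way to the 10 µg/L mean. The lens gap junction gene gja8b had 19.7, 8.02 and 12.8 normalised reads in DMSO, 14.3, 25.01 and 20.5 at 0.1 µg/L, and 38.04, 54.2 and 26.9 at 10 µg/L, and the lens aquaporin mipa had 837 ± 74.9 normalised reads in DMSO, 1090 ± 48.8 at 0.1 µg/L and 1118 ± 151 at 10 µg/L (SD, n = 3). The small heat shock protein of the lens, cryaa, had 487, 284 and 212 normalised reads in DMSO, 491, 441 and 479.9 at 0.1 µg/L, and 359.5, 317 and 279 at 10 µg/L.

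In liver and lipid lists the most frequent order of means was lowest at 0.1 µg/L, in numbers that depended on which libraries were used. Of 67 complement and coagulation genes, which are made in the liver, 45 were lowest at 0.1 µg/L, and the medians were -0.23 at 0.1 µg/L and 0.36 at 10 µg/L relative to DMSO. Their library means were 0.04, -0.80 and 0.68 in DMSO, -0.67, 0.11 and -0.22 at 0.1 µg/L, and 0.73, 0.05 and 0.09 at 10 µg/L, so that the groups overlapped. Only 1 of these genes had a slope at an unadjusted p under 0.05, and the median slope of 0.18 was -0.02 without DMSO replicate 2 and -0.00 with the first index as a covariate. Without DMSO replicate 3 the median slope was 0.40, and 22 of 67 genes (32.8%) were higher with dose, against 12.9% of all genes. Summed reads of 6 liver marker genes ranged from 13189.0 to 44709.0 in DMSO, 18593.9 to 31441.1 at 0.1 µg/L and 30286.3 to 44109.9 at 10 µg/L, and their part in these list values was not tested. Lowest means at 0.1 µg/L were also seen for 28 of 45 cytochrome P450 genes of families 1 to 3, 30 of 51 sphingolipid genes, 26 of 48 apolipoprotein and lipid transport genes and 26 of 47 fatty acid oxidation and PPAR genes, beside 6751 of 19076 genes overall. Without DMSO replicate 3, lowest means at 0.1 µg/L were counted for 21 of 67 complement and coagulation, 12 of 45 P450, 22 of 51 sphingolipid, 10 of 47 lipid transport and 15 of 47 fatty acid oxidation genes, beside 5201 of 18996 overall. Without 0.1 µg/L replicate 2 the counts in the same order were 53 of 67, 30 of 45, 34 of 51, 28 of 48 and 29 of 47, beside 7519 of 19056. Without both libraries they were 36 of 67, 18 of 45, 27 of 50, 17 of 47 and 23 of 47, beside 6522 of 18971. Of the fatty acid oxidation and PPAR genes, 2 were higher with dose and 1 lower. Without DMSO replicate 3 these numbers were 14 (29.8%) and 3 (6.38%), against 12.9% and 11.7% of all genes. The mitochondrial oxidation enzyme gene hadhab had 449, 452 and 493 normalised reads in DMSO, 396, 409 and 352 at 0.1 µg/L, and 529.7, 599 and 503 at 10 µg/L (departure -0.38 ± 0.12). The fatty acid binding protein gene fabp10b had 33.3, 62.7 and 27.9 normalised reads in DMSO, 20.8, 18.3 and 15.96 at 0.1 µg/L, and 9.51, 22.95 and 12.6 at 10 µg/L, the reverse direction (slope -0.70 ± 0.22). The low density lipoprotein receptor gene ldlrb had 60.6, 114 and 64.6 normalised reads in DMSO, 59.9, 40.4 and 21.7 at 0.1 µg/L, and 103, 101 and 96.8 at 10 µg/L, and the ceramide synthase gene cers4a had 89.4, 65.6 and 100.4 normalised reads in DMSO, 41.7, 92.4 and 59.3 at 0.1 µg/L, and 152, 182 and 157 at 10 µg/L. The factor VII family gene f7i and the P450 gene cyp2p10 had a departure of -1.03 ± 0.37 and a slope of -0.61 ± 0.23.

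Sterol synthesis was higher at 10 µg/L in part of its genes. Of 29 genes, 4 were higher with dose and 0 lower, slopes were above 0 for 24, and the medians were -0.00 at 0.1 µg/L and 0.18 at 10 µg/L relative to DMSO. Without DMSO replicate 3, 9 were higher and 0 lower, where 12.9% of all genes were higher and 11.7% lower. The rate-limiting enzyme gene hmgcra had 211, 271 and 193 normalised reads in DMSO, 255, 215 and 251 at 0.1 µg/L, and 335, 325 and 318 at 10 µg/L, a step at 10 µg/L with no overlap (slope 0.27 ± 0.08). The sterol isomerase gene ebp had 39.4, 36.5 and 47.8 normalised reads in DMSO, 46.9, 42.3 and 36.5 at 0.1 µg/L, and 74.2, 67.9 and 60.6 at 10 µg/L.

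Circadian clock genes were found in both directions. Of 43 genes, 9 (20.9%) were higher and 4 (9.3%) lower with dose. The gene cry2, given next, was chosen for a small slope p in these libraries, so its p-values are not separate support. No gene's slope passed adjustment in limma (lowest adjusted p 0.482). The light-sensitive repressor family gene cry2 had 828, 959 and 1006 normalised reads in DMSO, 1109, 1327 and 1016 at 0.1 µg/L, and 1434, 1421 and 1257 at 10 µg/L (slope 0.28 ± 0.07, limma p = 0.00129, exact permutation p = 0.00357), and the period gene per1b had 1836 ± 182 normalised reads in DMSO, 2068 ± 358 at 0.1 µg/L and 2429 ± 43.1 at 10 µg/L (SD, n = 3). The opposite direction was seen in rorcb, while its relative rorca was lowest at 0.1 µg/L with 62.1, 91.9 and 234 normalised reads in DMSO, 27.3, 120.3 and 28.5 at 0.1 µg/L, and 198, 214 and 181 at 10 µg/L. Without DMSO replicate 3, 12 of 43 were higher (27.9%) and 5 lower (11.6%), against 12.9% and 11.7% of all genes, and with the first index as a covariate 3 were higher and 2 lower.

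Interferon and immediate early lists had trends in both directions, and single genes had steps at 10 µg/L. In the antioxidant and heat shock lists, most of the genes with a trend were lower with dose. Of 42 interferon-stimulated genes, 4 were higher and 3 lower with dose, and the median slope of 0.02 became -0.04 with quantile scaling. The ubiquitin-like antiviral gene isg15 had 62.1, 61.3 and 36.7 normalised reads in DMSO, 39.1, 75.04 and 42.2 at 0.1 µg/L, and 193, 151 and 192 at 10 µg/L, 3.35-fold higher at 10 µg/L than in DMSO (slope 0.88 ± 0.21, departure -0.93 ± 0.26). The antiviral enzyme gene rsad2 had 6.06, 9.48 and 15.1 normalised reads in DMSO, 18.2, 11.6 and 10.3 at 0.1 µg/L, and 134, 22.95 and 25.3 at 10 µg/L, where 10 µg/L replicate 1 was far above all other libraries. The guanylate-binding protein gene gbp3 had the opposite sign (-0.28 ± 0.09). Of 60 immediate early genes, 3 were higher and 3 lower, and 32 were lowest at 0.1 µg/L (35.39% of all genes). Without both libraries that stood apart, 18 of 60 were lowest and 21 highest there, beside 6522 and 6525 of 18971 genes overall. The nuclear receptor nr4a2a had 25.8, 31.4 and 16.7 normalised reads in DMSO, 18.2, 36.6 and 45.6 at 0.1 µg/L, and 65.6, 73.4 and 70.7 at 10 µg/L, and ier2a, lowest at 0.1 µg/L, had a departure of -0.50 ± 0.14. Of 65 antioxidant and Nrf2 genes, 1 was higher (1.54%) and 6 were lower (9.23%), against 5.57% and 4.51% of all genes. Without DMSO replicate 3, 5 were higher (7.69%) and 8 lower (12.3%), against 12.9% and 11.7% of all genes. The heme oxygenase gene hmox2a had 661, 726 and 753 normalised reads in DMSO, 716, 619 and 705 at 0.1 µg/L, and 483, 469 and 511 at 10 µg/L, and the peroxidase gpx7 had 45.5, 37.2 and 38.3 normalised reads in DMSO, 20.8, 25.98 and 20.5 at 0.1 µg/L, and 19.97, 22.95 and 14.3 at 10 µg/L, a level already reached at 0.1 µg/L. The Nrf family gene nfe2l3 was lowest at 0.1 µg/L (departure -0.55 ± 0.16). Of 89 heat shock and chaperone genes, 1 was higher (1.12%) and 10 were lower (11.2%). Without DMSO replicate 3, 6 were higher (6.74%) and 18 lower (20.2%). The gene hspb9 had 84.9, 136 and 87.7 normalised reads in DMSO, 40.4, 51.95 and 74.1 at 0.1 µg/L, and 13.3, 24.8 and 63.1 at 10 µg/L.

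In the cell cycle and chromatin lists more genes with a trend were higher than lower, but not without DMSO replicate 3. Then 6 DNA replication and mitosis genes were higher and 7 lower, and 15 histone and DNA modifying enzymes were higher and 24 lower. Matrix genes gave mixed directions. Of 106 DNA replication and mitosis genes, 8 were higher and 1 lower, with a median slope of 0.02 that was -0.04 without DMSO replicate 3 and -0.00 with quantile scaling. Beside mcm5, the helicase subunits mcm2 and mcm6 had 467, 357 and 281 normalised reads in DMSO, 453, 471 and 455 at 0.1 µg/L, and 508, 639 and 553 at 10 µg/L for mcm2 and 231 ± 30.6 normalised reads in DMSO, 255 ± 32.2 at 0.1 µg/L and 358 ± 89.9 at 10 µg/L (SD, n = 3) for mcm6. Of 178 histone and DNA modifying enzymes, 8 were higher (4.49%) and 1 lower (0.562%), and the demethylase kdm2ba had 193, 222 and 242 normalised reads in DMSO, 172, 309 and 205 at 0.1 µg/L, and 428, 554 and 463 at 10 µg/L. Of 106 collagens and matrix enzymes, 6 were higher and 5 lower, and 59 were lowest at 0.1 µg/L (35.39% of all genes), with 19 departures below the line (6.09% of all genes). Without DMSO replicate 3, 25 of 105 were higher (23.8%) and 9 lower (8.57%), against 12.9% and 11.7% of all genes. The main skin and bone collagen gene col1a1a had 8248, 6969 and 7429 normalised reads in DMSO, 7398, 8734 and 6893 at 0.1 µg/L, and 10335, 9628 and 10041 at 10 µg/L. Keratin and epithelial genes were lower in 3 and higher in 0 of 47, among them cyt1 with a slope of -0.28 ± 0.10 and icn with -0.24 ± 0.07. Of 21 exocrine pancreas enzymes, 0 had a slope at an unadjusted p under 0.05 in either direction although 19 slopes were below 0, and the syncollin gene sycn.3 had a departure of -0.95 ± 0.33. Departures below the line were also large for the neuronal genes kcnq2b (-1.81 ± 0.55) and shank2 (-1.20 ± 0.31) and for the muscle calcium store gene casq1a (-0.75 ± 0.21).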

How the data were processed

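RNA-seq libraries of 9 larval pools were used. Per the labels and the study's methods, the authors trimmed reads with Trimmomatic 0.36, mapped them with STAR 2.5.2b to GRCz10 and counted reads on genes with featureCounts (Subread 1.5.2). The deposited values are a signal, that is reads per gene after division by a DESeq2 size factor, in 2 tables that share the DMSO libraries. The deposited log2 fold changes and p-values hold the authors' own comparisons and were not used.

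Each value was a whole multiple of 1 read within a tolerance of 0.01 in all 12 library columns, so reads were recovered, and the 3 DMSO libraries gave the same reads in both tables. The tables held 19251 and 19731 genes, each with its own floor, and the 19130 genes in both were joined. Genes in only one table have no value for the third group here and were not tested. The 9 libraries were scaled together by median-of-ratios size factors. Totals of 14491289 to 23963715 reads per library and 3 libraries per group set the precision. Symbols came from the deposited tables for 18533 genes.

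Log2 of the scaled reads plus a pseudocount of 1 was fitted in limma 3.58.1 (R 4.3.3, empirical Bayes with trend) on genes with a mean of at least 10, once on dose rank and once with 3 group means for the departure contrast. All p-values were two-sided and adjusted by Benjamini-Hochberg over the 19076 genes. Exact permutation p used all 1680 assignments and was not adjusted. Named genes were the 8 monotonic genes per direction with the smallest slope p, the 6 per direction with the smallest departure p, 3 slopes and 1 departure per list, and up to 8 in strict order, 155 in all, of which part are printed. Some named genes are not reported here. Members and lists were chosen with earlier results of these data known. Alternatives were other pseudocounts, minima, scalings (TMM, quantile), moderation, dose scales, a block on the replicate number, the first index as a covariate, edgeR 4.0.16, DESeq2 1.42.0 and leaving out each library. Fits were tested on simulated counts. Python 3.11.15, pandas 2.3.3, numpy 2.4.6 and matplotlib 3.10.9 were used.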

Additional observations from a re-analysis of the deposited data

How the results depend on the processing

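Scaling, pseudocount, minimum mean, moderation, edgeR and DESeq2 kept the number of unadjusted trend calls within 1.5 times of 1924. The exceptions were the first index as a covariate (835), concentration as the regressor (3998) and single libraries left out (753 to 4672), and leaving out DMSO replicate 3 and 0.1 µg/L replicate 2 together gave 4559, a choice made after the data were seen. Adjusted trend calls were 0 to 365 with single libraries left out and 603 with both. Unadjusted departure calls were 4970 with the first index, 564 to 4063 with single libraries left out and 4131 with both, and adjusted departure calls were 0 to 62 and 769. Monotonic means were counted for 3939 to 8888 genes with single libraries left out, and strict order for 48 with quantile scaling, 51 to 253 with single libraries left out and 497 with both. Between 19 and 24 of 34 list medians were above 0, and 13 lists changed sign under some alternative.

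With the replicate number as a block, 1820 trend and 1874 departure calls were found at an unadjusted p under 0.05 and 0 after adjustment. Correlations of deviations from the group means ranged from -0.35 to 0.285 for 9 same-numbered pairs and from -0.467 to 0.579 (mean 0.002) for 18 other pairs. These ranges gave no sign of pairing by number. Deviations sum to 0 within each group, which holds the mean correlations near 0, so this check cannot exclude a pairing. Of the values of 91 named genes, 0 reversed in 2281 refits, and 64 refits passed adjustment, all without DMSO replicate 3, 0.1 µg/L replicate 2 or both. The genes were chosen for small p in the same libraries, which favours an unchanged sign. Depth limits genes with few reads such as gas2l1 and cts12.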
